A study of Mus musculus with 4 samples.

Results

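The genes of the cytosolic ribosome were followed in the prelimbic cortex of adult male mice, at postnatal day 90, after exposure to fluoxetine before birth. Their members were the probe sets annotated to 1 symbol only, where that symbol names a protein of the large subunit (Rpl) or small subunit (Rps). Kinases of the Rps6k family and pseudogenes were left out, and where a gene had several probe sets the brightest on average over the 4 arrays stood for it. This gave 50 genes, 26 named for the large and 24 for the small subunit, out of 18193 genes tested. RNA from punched tissue was labelled with biotin and hybridised to 4 Affymetrix arrays. The fluoxetine group held 2 arrays, from male mice exposed before birth to this selective serotonin reuptake inhibitor, and the untreated group 2 arrays, from control males of the same age. The labels give neither strain nor dose, and leave unsaid whether the RNA of an array came from 1 mouse or from a pool, and which mice were littermates. The submitters describe the pair of arrays in each group as biological duplicates.

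A ribosome is built from a small subunit, which reads the messenger RNA, and a large subunit, which joins amino acids. Each ribosomal protein is present at about 1 copy per ribosome, and the messages of these proteins are among the most abundant of most cells, neurons included. Their transcripts typically begin with a C followed by a run of pyrimidines, the 5' terminal oligopyrimidine (TOP) tract, through which the growth kinase mTOR and the RNA-binding protein Larp1 control their translation together. Arrays measure the transcripts and not this translational control.

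Of a list of 77 structural genes, 46 of the large and 31 of the small subunit, 43 were measured here. The other 34 had no probe set with 1 symbol, and 27 of these were listed on probe sets that carry several symbols. The other 7 members were the paralogues Rpl3l, Rpl7l1, Rpl22l1, Rpl39l, Rps4l and Rps27l, and Rps19bp1, whose product binds Rps19 and is no subunit of the ribosome.

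The start sites of the members are shown because the TOP tract is the sequence feature that the family is known for. In RefSeq's promoter table (GRCm38.p6), 44 of the 50 members had at least 1 annotated start. A C at the annotated start followed by at least 4 pyrimidines was found for 8 of 38 structural genes (21.1%) and 0 of 6 other members, against 3.01% of all 27025 genes in the table and 2.94% of the 14368 array genes found in it. The 8 windows below run from 10 bases before to 20 bases from the start, with the tract in capitals.
Rpl14, chr9:120571507-120571536, plus strand: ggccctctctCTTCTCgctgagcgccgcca
Rpl35, chr2:39005112-39005141, minus strand: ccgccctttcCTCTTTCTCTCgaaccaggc
Rpl38, chr11:114668570-114668599, plus strand: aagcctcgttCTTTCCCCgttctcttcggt
Rplp2, chr7:141447641-141447670, plus strand: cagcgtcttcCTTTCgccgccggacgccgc
Rps6, chr4:86857348-86857377, minus strand: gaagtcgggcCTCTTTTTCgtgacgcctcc
Rps10, chr17:27635225-27635254, minus strand: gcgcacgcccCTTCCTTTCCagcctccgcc
Rps18, chr17:33955646-33955675, minus strand: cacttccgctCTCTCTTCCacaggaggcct
Rps27, chr3:90213629-90213658, minus strand: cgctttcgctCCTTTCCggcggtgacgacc
Only the exact annotated base counted as a start, so that a tract beginning beside it was not counted for any gene. The 2 windows that follow, of the genes with the largest positive differences described further on, hold no tract at the annotated start. That of Rpl27a has a T there, inside a run of pyrimidines and with a C directly before it.
Rpl27a, chr7:109519185-109519214, plus strand: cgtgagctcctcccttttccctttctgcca
Rpl37, chr15:5116603-5116632, plus strand: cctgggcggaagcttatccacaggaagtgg
The word CCGGAAG, the core bound by ETS-family factors, was searched on both strands, as CCGGAAG or CTTCCGG, over windows of 300 bases (250 before the start and 50 after). It lay in the windows of 19 of 38 structural genes, against 9.93% of all genes in the table and 15.03% of the array genes. The 100 bases before the starts of Rpl37 and Rpl38, which differed in opposite directions below, are shown with that word in capitals.
Rpl37, chr15:5116513-5116612, plus strand: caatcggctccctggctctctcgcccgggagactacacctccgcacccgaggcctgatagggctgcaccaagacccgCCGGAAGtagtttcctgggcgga
Rpl38, chr11:114668480-114668579, plus strand: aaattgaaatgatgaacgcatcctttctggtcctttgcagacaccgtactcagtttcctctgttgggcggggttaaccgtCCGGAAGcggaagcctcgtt
Both genes thus carry the word before the start. A match is a description of letters and shows no binding.

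The 4 arrays had median log2 intensities between 6.44 and 6.50. Markers of cortical excitatory neurons were measured for 10 genes, at mean levels of 9.48 to 13.92. Untreated replicate 2 stood apart in markers of other tissue. All 14 striatal medium spiny neuron markers were highest on that array, with summed log2 levels of 132.3 there, 119.7 on untreated replicate 1 and 117.3 and 121.2 with fluoxetine. Of 13 oligodendrocyte markers, 12 were highest on the same array, with a sum of 143.2 against 139.4 to 139.5 on the other 3 arrays. No marker of either list was near 0, the lowest mean level being 5.70. In bulk tissue, fewer cells of a type and less RNA per cell cannot be told apart. Values are log2 intensities throughout, differences are given as fluoxetine minus untreated between group means, and signals of different probe sets do not rank the abundance of their transcripts.

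Ribosomal protein transcripts of the adult prelimbic cortex differed little between the fluoxetine and the untreated arrays. The question asked here was whether the 2 groups differ in this family, subunit by subunit. At an unadjusted p below 0.05 in limma, 1 of the 50 genes was higher, 0 were lower and 49 did not pass; over all genes 3.45% were higher and 3.51% lower, 6.96% together. In a fit of the genes above the median level alone, where 5.75% of 9096 genes were higher and 2.29% lower, 1 of the 43 members in it was higher (Rpl27a) and 1 lower (Rpl38). No member had an adjusted p below 0.05 in limma, the lowest being 0.709, and 0 of 18193 genes did (0.0%). The median difference was −0.015 over the large subunit genes and −0.039 over the small subunit genes. It was −0.020 over all genes tested and 0.0031 over those above the median level. After subtracting array medians the subunit medians were 0.021 and −0.0028, beside 0.017 over all genes. The sign of the large subunit median thus followed the scaling. The exact permutation test of 2 against 2 arrays cannot give a p below 0.333 and was not used for single genes. Over all genes the fit called 628 higher and 638 lower at this threshold, but 572 and 1113 after quantile normalization and 846 and 431 after subtracting array medians, so that the split by direction depended on the scaling.

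**Figure D1:**
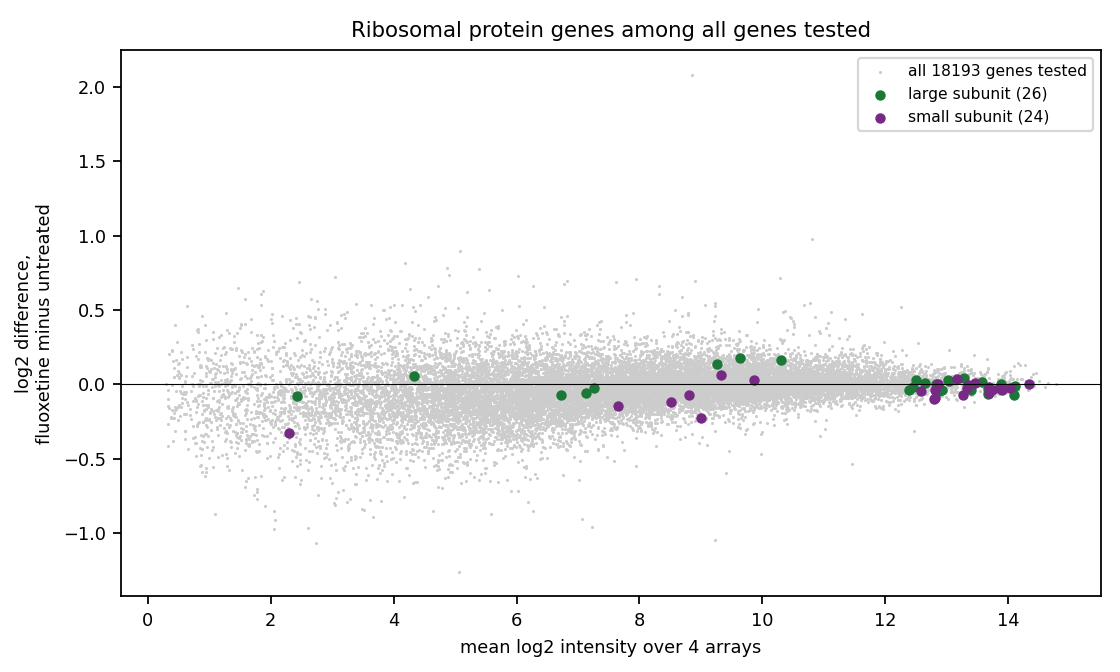
Each point is a gene, with its mean log2 intensity over the 4 arrays on the horizontal axis and its log2 difference (fluoxetine minus untreated) on the vertical axis; grey points are all 18193 genes tested, green the 26 large subunit and purple the 24 small subunit genes. Most ribosomal protein genes lie at the bright end, where differences are small, between −0.33 and 0.18 over all members.

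The bright members had narrow intervals. For 35 members the mean signal lay above 12, and their 95% intervals in limma reached at most 15.2% lower (Rpsa) and 9.59% higher (Rpl22l1). The intervals of 26 of these 35 lay within 1.1-fold in either direction. These widths rest in part on the intensity trend of the fit. Without the trend Rpl38 kept its difference of −0.07, but its unadjusted p in limma went from 0.054 to 0.31. For Rpsa, at −0.10, it went from 0.14 to 0.32. Intervals without the trend are not given here and would be wider for these genes. Their arrays also agreed closely within a group: the median gap was 0.025 between the fluoxetine arrays and 0.037 between the untreated arrays, beside a median size of 0.029 for the difference between groups. The median size of the difference thus lay between the median gaps of the fluoxetine and the untreated arrays. Over all genes it was 0.079, beside gaps of 0.087 and 0.110. Group means vary less than single arrays, so that a like size does not show that the groups are equal. The brightest signals lie within 1 log2 unit of the highest value of the table, 15.14, and whether they were compressed there was not tested.

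Large subunit genes were led by Rpl37, which encodes a zinc-binding protein of the large subunit. Its probe set read 10.47 and 10.29 on the fluoxetine arrays and 10.21 and 10.22 on the untreated arrays. Both fluoxetine arrays lay above both untreated arrays, but fluoxetine replicate 2 was nearer to the untreated arrays than to the other fluoxetine array. The group values were 10.38 ± 0.13 (SD, n = 2) and 10.21 ± 0.01 (SD, n = 2), a difference of 0.17 (SE 0.07, 95% interval 1.002-fold to 1.257-fold, adjusted p = 0.709 in limma). The difference was 0.08 without fluoxetine replicate 1 and did not pass there, nor without either untreated array, without the intensity trend, after quantile normalization, with the most variable probe set of each gene, or among the genes above the median level. Other probe sets that list Rpl37 carry several symbols and are named for none, so that this gene rests on 1 probe set, whose ID ends in _x_at, the suffix for probes that may also match other transcripts.

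Rpl27a, a large subunit protein, was singled out after its values were seen. It read 9.74 and 9.70 with fluoxetine and 9.45 and 9.64 without, so that the groups did not overlap. Its difference was 0.18 (SE 0.08, adjusted p = 0.711 in limma), and a much dimmer probe set of the gene differed by −0.07. Rpl7l1, a paralogue of Rpl7 that acts in ribosome assembly, read 9.29 and 9.36 with fluoxetine and 9.18 and 9.20 without. The groups did not overlap, the difference was 0.14 (SE 0.06), and of its other probe sets one differed by 0.14 and the other by −0.0055. The parent Rpl7 read 12.84 and 12.82 with fluoxetine and 12.86 on both untreated arrays, but another of its probe sets differed by 0.14, and Rpl7 passed an unadjusted p below 0.05 as higher when the most variable probe set stood for each gene. Rpl38, known for its part in the selective translation of Hox messages in the embryo, read 14.06 and 14.08 with fluoxetine and 14.13 and 14.14 without. The difference was −0.07 (SE 0.03, adjusted p = 0.711 in limma), with the arrays of each group closer to each other than to the other group. After quantile normalization, Rpl27a (0.14) passed an unadjusted p below 0.05 as higher and Rpl38 (−0.10) as lower; Rpl27a also passed after subtracting array medians, with plain _at probe sets and without untreated replicate 2 (0.27). It was at 0.08 without untreated replicate 1 and at 0.06 with the mean of its probe sets, and passed in neither; Rpl38 was at −0.04 after subtracting array medians. Over all genes, 3.14% were higher and 6.12% lower after quantile normalization.

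The ribosomal stalk, which recruits the GTPase factors of translation, was represented by Rplp0 and Rplp2. Rplp0, the stalk base, read 12.62 and 12.67 with fluoxetine and 12.60 and 12.68 without, with groups that overlapped throughout. Rplp2 read 13.63 on both fluoxetine arrays and 13.65 and 13.75 without, a difference of −0.06 (SE 0.04). It was at −0.11 without untreated replicate 1, where it passed an unadjusted p below 0.05 in limma as lower, and at −0.02 without untreated replicate 2. Here untreated replicate 2 stood above the other 3 arrays, which lay close together. Rpl11, which can bind the p53 regulator Mdm2 when free of the ribosome, read 12.92 and 12.87 with fluoxetine and 12.90 and 12.97 without.

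The brightest large subunit signals were those of Rpl41, Rpl38 and Rpl13a. Rpl41, the smallest protein of the ribosome, read 14.10 and 14.11 with fluoxetine and 14.12 and 14.11 without. Rpl13a, often used as a reference gene, read 13.877 and 13.893 with fluoxetine and 13.875 and 13.895 without, with nested groups. Its 95% interval ran from 0.949-fold to 1.054-fold.

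**Figure D2:**
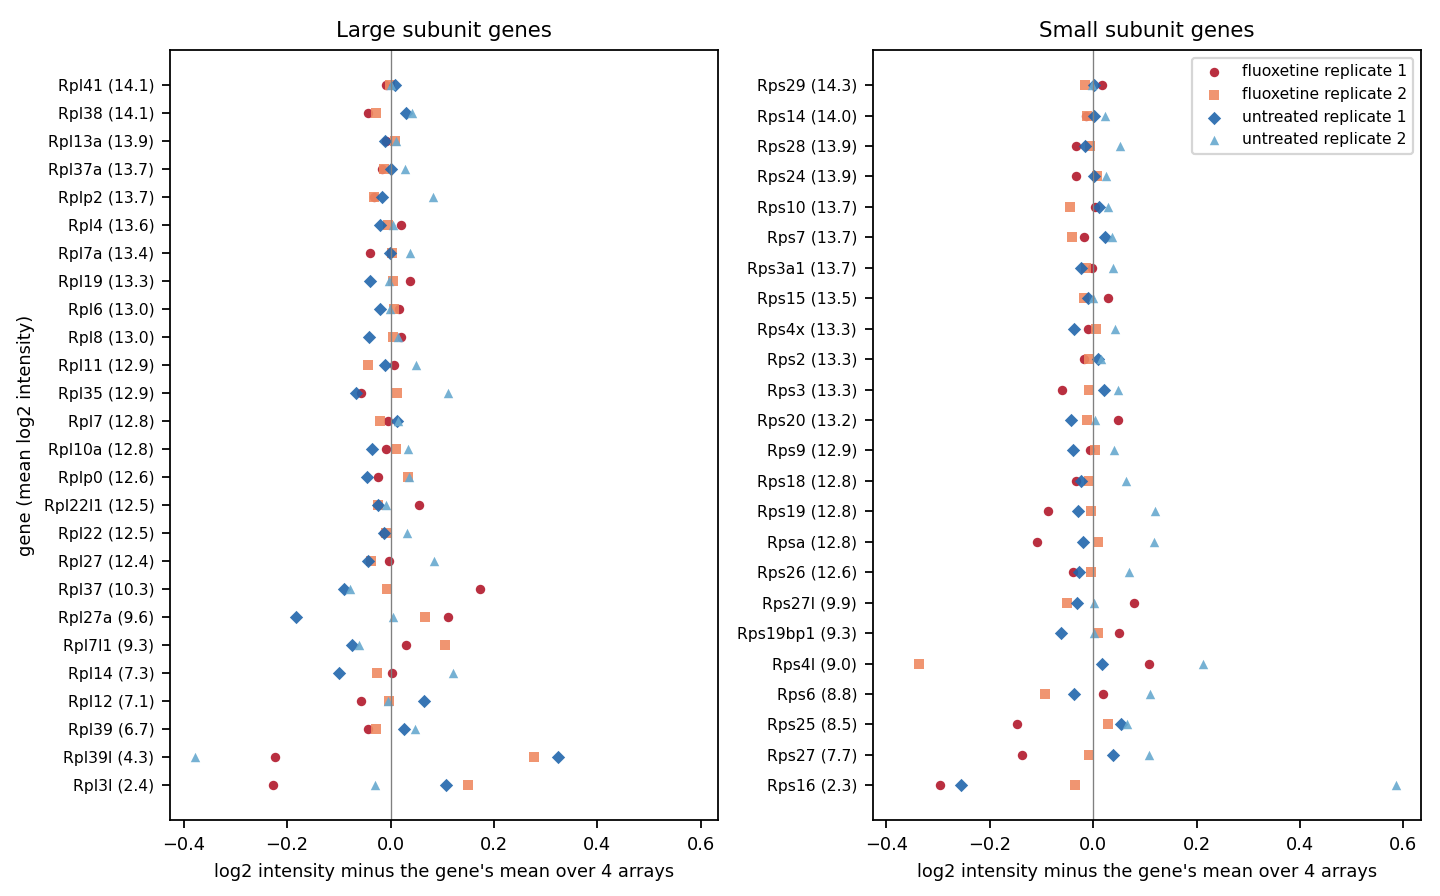
Each row is a gene with its mean log2 intensity in brackets, and each of its 4 points is an array, placed by its log2 intensity minus the gene's mean (left, large subunit; right, small subunit; red circles and orange squares are fluoxetine, blue diamonds and light blue triangles untreated). Untreated replicate 2 is the highest array for 19 of the 24 small subunit and 14 of the 26 large subunit genes.

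Small subunit genes gave no call at an unadjusted p below 0.05 in limma, in either direction, with an adjusted p of 0.718 or more. Of the 24 genes, 19 had a negative and 5 a positive difference. Over all 18193 genes, 10464 differences were negative and 7729 positive. Above the median level 4374 were negative and 4722 positive. Both fluoxetine arrays lay below both untreated arrays for 7 genes, 29.2%, and above them for 1 gene, 4.17%. Over all genes these shares were 22.3% and 15.5%. The 1 gene above was Rps19bp1, which is no subunit of the ribosome. Of the 21 structural small subunit genes, 7 lay below (33.3%) and 0 above. Among the large subunit genes the counts were 6 below and 5 above out of 26. The share below was 23.1% in the large subunit, beside 22.3% of all genes. Of the genes above the median level, which include 43 of the 50 members, 16.9% lay below and 21.8% above.

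The small subunit differences moved with untreated replicate 2. This array was the highest for 19 of the 24 genes (79.2%), against 36.1% of all genes and 43.6% of those above the median level. The median of the fluoxetine mean minus the level of untreated replicate 1 was −0.0025 over the small subunit genes, and −0.058 against untreated replicate 2. A fit without untreated replicate 2 rests on the same comparison with untreated replicate 1, so that its small subunit median is again −0.0025. Its large subunit median was 0.017. The striatal and oligodendrocyte markers were highest on this array too, by the sums given above, and their part in the result was not tested.

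Rpsa and Rps19 show this pattern most plainly among bright probe sets. Rpsa, the small subunit protein also known as the laminin receptor, read 12.69 and 12.80 with fluoxetine and 12.77 and 12.91 without. Its difference was −0.10 (SE 0.06) in overlapping groups, with fluoxetine replicate 1 below and untreated replicate 2 above the other arrays. Rps19, whose loss of 1 copy causes Diamond-Blackfan anaemia in humans, read 12.72 and 12.81 with fluoxetine and 12.78 and 12.93 without (difference −0.09, SE 0.06). Without untreated replicate 1 both passed an unadjusted p below 0.05 in limma as lower, each at −0.17, and in that fit 5 members were lower and 0 higher, where 6.33% of all genes were lower and 3.11% higher. Without untreated replicate 2 they were at −0.03 and −0.02 and neither passed. Rps6, the protein phosphorylated by S6 kinase downstream of mTOR, was read by a dimmer probe set at 8.82 and 8.71 with fluoxetine and 8.77 and 8.91 without. Its difference was −0.07 (SE 0.08) and 0.00048 without untreated replicate 2.

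The brightest small subunit signals hardly differed. Rps29 read 14.37 and 14.33 with fluoxetine and 14.35 on both untreated arrays. Rps14, a protein of the platform of the small subunit, read 14.03 on both fluoxetine arrays and 14.04 and 14.06 without, a difference of −0.03 (SE 0.03). Rps28 read 13.88 and 13.90 with fluoxetine and 13.89 and 13.96 without.

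**Figure D3:**
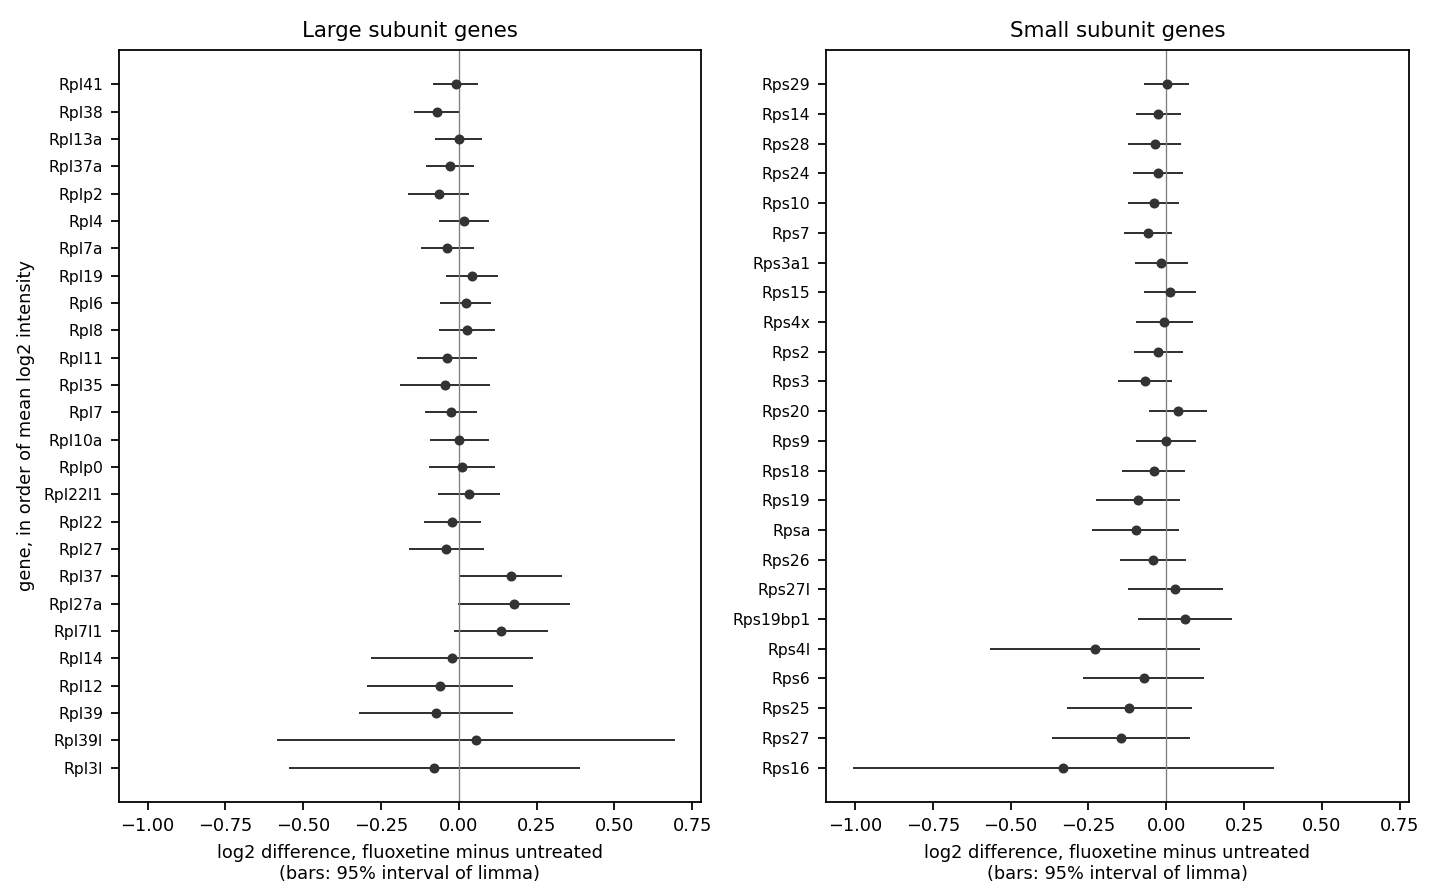
Points give the log2 difference (fluoxetine minus untreated) of each gene and bars its 95% interval from limma, with 2 arrays a group, for the large (left) and small subunit (right), in order of mean log2 intensity with the brightest on top. The intervals widen toward the dim genes at the bottom, and that of Rpl37 alone excludes 0.

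The paralogues and Rps19bp1 gave 0 calls at an unadjusted p below 0.05 in limma out of 7, and their median difference was 0.032. Rpl22l1, which can replace Rpl22 in the ribosome, read 12.55 and 12.48 with fluoxetine and 12.48 and 12.49 without. Rpl22, the RNA-binding parent protein, read 12.44 on both fluoxetine arrays and 12.44 and 12.48 without. On these probe sets neither gene separated the groups. On the other, dimmer probe sets of Rpl22 both fluoxetine arrays lay above both untreated arrays, with differences of 0.02 and 0.05. Rps27l, a p53-induced paralogue of Rps27, read 9.95 and 9.82 with fluoxetine and 9.84 and 9.87 without, while Rps27 read 7.52 and 7.65 with fluoxetine and 7.69 and 7.76 without. The Rps27 groups did not overlap, with a difference of −0.15 (SE 0.09), but its probe set is one of those far dimmer than the rest of the family.

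Rps4l read 9.10 and 8.66 with fluoxetine and 9.01 and 9.21 without, a difference of −0.23 (SE 0.14). The lone low array was fluoxetine replicate 2. Without it the difference was −0.0073, and without fluoxetine replicate 1 it was −0.45. The X-linked parent Rps4x read 13.33 and 13.34 against 13.30 and 13.38. Rps19bp1, also called active regulator of SIRT1, read 9.37 and 9.33 with fluoxetine and 9.26 and 9.32 without. Rpl3l and Rpl39l, paralogues known from striated muscle and from male germ cells, had mean signals of 2.43 and 4.33, below the lower quartile of every array (4.42 to 4.57). Their intervals were wide, 0.685-fold to 1.31-fold and 0.667-fold to 1.62-fold, so that smaller differences were not detectable.

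Among the 43 structural genes, 9 were read at mean signals at or below 12: Rpl12, Rpl14, Rpl27a, Rpl37, Rpl39, Rps6, Rps16, Rps25 and Rps27. For all 9 a probe set with several symbols also listed the gene, and the brightest such probe set had a mean signal between 12.5 and 14.1. For these genes, the rule of 1 symbol therefore kept a dim probe set and left out a bright one. Rps16 is the clearest case: its remaining probe set read 1.999 and 2.26 with fluoxetine and 2.04 and 2.88 without, below the lower quartile of all probe sets. Its difference of −0.33 (SE 0.29) was the most negative of all members, and it was 0.09 without untreated replicate 2. Rps25, which serves initiation on internal ribosome entry sites, read 8.36 and 8.54 with fluoxetine and 8.56 and 8.58 without (−0.12, SE 0.08). Rpl39, a protein of the exit tunnel encoded on the X chromosome, read 6.68 and 6.69 with fluoxetine and 6.74 and 6.77 without.

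The probe sets with several symbols, 110 in all, were therefore described as a group and named for no gene. They had a median signal of 12.9, and their median difference was −0.0097 over 76 for the large and −0.014 over 34 for the small subunit. Both fluoxetine arrays lay below both untreated arrays in 27 (24.5%, against 22.3% of all genes) and above in 10 (9.09%, against 15.5%), and 73 overlapped. Of the genes above the median level 16.9% lay below and 21.8% above. Untreated replicate 2 was again the highest array in 62 of the 110. Several of these can read the same transcript, so they are no independent readings.

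Probe sets of one member did not always move together. Of the 50 genes, 24 had more than 1 probe set, and in 16 of these the differences had both signs. The widest range was that of Rps9, from −0.44 at a mean signal of 3.59 to 0.20, with −0.00083 at its brightest probe set. Rps14 and Rps28, with bright probe sets only, ranged from −0.05 to −0.03 and from −0.05 to −0.02. Other genes whose probe sets all had mean signals above 12 showed both signs. These were Rpl7 (−0.03 to 0.14), Rps7 (−0.06 to 0.06), Rps15 (−0.03 to 0.01) and Rps29 (−0.02 to 0.04). Over all 106 probe sets of the members the median difference was −0.022. Of the 50 members, 17 were read by probe sets ending in _a_at, the suffix for several transcripts of 1 gene. Another 2 ended in _s_at and 13 in _x_at, whose probes may also match other transcripts, so that signal from copies or pseudogenes cannot be told apart from the named gene there.

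Other parts of the translation machinery were described from lists chosen with earlier results of these data known. Fau, a structural gene of the small subunit with another kind of symbol, had a difference of −0.05 (SE 0.04). Mitochondrial ribosomal proteins, which serve the separate ribosome of that organelle, had a median difference of −0.010 over 76 genes, with 0 higher and 1 lower, Mrpl46 (−0.13, SE 0.05), at an unadjusted p below 0.05 in limma. Untreated replicate 2 was the highest array for 65.8% of these genes as well.

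Other TOP transcripts had a median of 0.022 over 19 genes, with 2 higher, 0 lower and 17 not past that threshold. The 2 were Pabpc1, the cytoplasmic poly(A)-binding protein (0.20, SE 0.05), and the nucleolar chaperone Npm1 (0.14, SE 0.05), while another probe set of Pabpc1 differed by −0.15. Eef1a1 and Tpt1, the elongation factor and the translationally controlled tumour protein with classical TOP tracts, differed by −0.01 (SE 0.03) and −0.0092 (SE 0.03), and by 0.02 and 0.03 after subtracting array medians. Tpt1 was at −0.19 with the mean of its probe sets, where it passed the threshold as lower, and at −0.37 with its most variable probe set, where it did not. Eef2, the translocation factor, differed by 0.07 (SE 0.04), and by −0.29 with its most variable probe set.

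Initiation factors had a median of 0.021 over 32 genes, with 2 higher and 0 lower: Eif3a, the scaffold of the eIF3 complex (0.26, SE 0.06), and Eif1a (0.19, SE 0.06). Elongation, termination and recycling factors had a median of −0.0093 over 12 genes, with 0 higher and 1 lower, Gtpbp2, which rescues stalled ribosomes (−0.16, SE 0.06), which passed as higher (0.27) with its most variable probe set. The neuronal elongation factor Eef1a2 differed by 0.03 (SE 0.05), and by −0.00098 after quantile normalization. Ribosome biogenesis factors had a median of 0.014 over 47 genes, with 5 higher, 1 lower and 41 not past the threshold. The box C/D ribonucleoprotein components Nop58 (0.33, SE 0.08) and Nop56 (0.23, SE 0.07) and the assembly factor Rrs1 (0.15, SE 0.06) were higher, and Nop10, of the box H/ACA particles, was lower (−0.15, SE 0.04), though at 0.03 with its plain _at probe set. Both fluoxetine arrays lay above both untreated arrays for 16 of these 47 genes (34.0%), against 15.5% of all genes and 21.8% of those above the median level. Untreated replicate 1 was the lowest array for 26 of the 47. It was also the lowest for 5639 of all 18193 genes and for 4134 of the 9096 above the median level. Some cell markers moved the same way: 3 of 10 cortical excitatory neuron and 3 of 8 astrocyte markers were higher at that threshold and 0 lower. Over all genes 3.45% were higher and 3.51% lower, and 5.75% and 2.29% in the fit of genes above the median level. Other markers did not follow. Of 13 oligodendrocyte markers 0 were higher and 3 lower, of 14 striatal markers 0 and 1, and of 9 microglia markers 0 and 0. Of 7 meningeal markers 2 were higher and 0 lower. For the cortical neuron markers the summed log2 levels were 108.4 and 107.6 with fluoxetine against 107.1 and 107.2. For the astrocyte markers they were 84.4 and 85.1 against 83.9 and 84.5. No mean level in either list was below 7.58. The part of cell markers in the result was not tested. Genes of mTOR signalling and growth control had a median of 0.024 over 20 genes, with 2 higher, Larp4 (0.17, SE 0.06) and the mTOR activator Rheb (0.10, SE 0.04), and 0 lower. Of the 12 called genes named from these lists, 3 kept their call with any 1 array left out, Eif3a, Pabpc1 and Nop10, and of these Eif3a alone kept it under all 11 alternatives (0.90 with its most variable probe set). Pabpc1 was at 0.12 without untreated replicate 2. Without fluoxetine replicate 1 the calls of the other 9 ended, with Nop56 at 0.15, and without untreated replicate 1 those of Npm1 (0.09), Rrs1 (0.09), Rheb (0.07), Eif1a, Gtpbp2 and Mrpl46 ended. Rrs1, Rheb, Gtpbp2 and Mrpl46 were also lost without fluoxetine replicate 2, and Nop56, Larp4 and Mrpl46 without untreated replicate 2. With the mean of a gene's probe sets, Eif1a was at 0.06 and Rrs1 at 0.09, and neither passed; Rheb was lost after quantile normalization (0.07) and Mrpl46 after subtracting array medians (−0.09). In none of these lists did a gene have an adjusted p below 0.05 in limma, the lowest being 0.696. Poly-A control transcripts, which are added before labelling, were higher with fluoxetine in 24 of 24 probe sets by a median of 0.24. Several of these probe sets read the same added transcript, so they are no independent readings. The part of these controls in the values above was not tested.

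**Figure D4:**
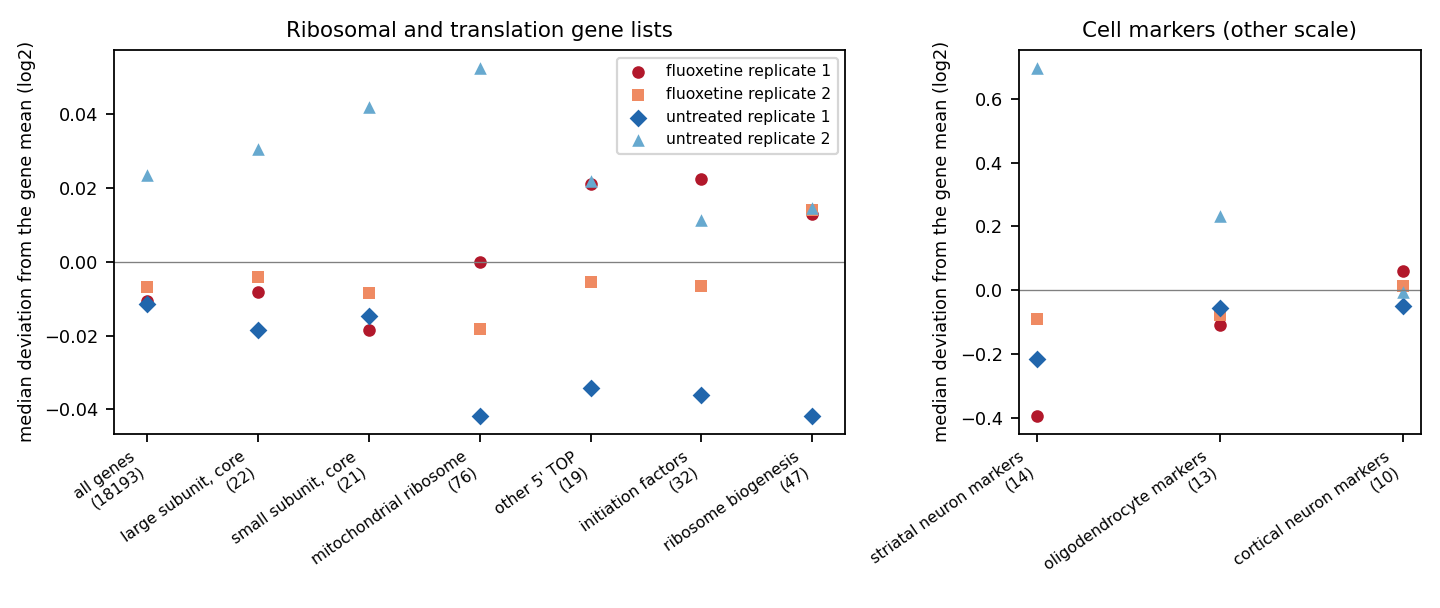
Points give, for each array, the median over a gene list of the log2 intensity minus the gene's mean over the 4 arrays, with the number of genes in brackets; the right panel has its own, wider scale. Untreated replicate 2 is the highest point for both ribosomal subunits (medians of 0.031 and 0.042 over the structural genes) and for striatal markers (0.70). It is also the highest for all genes (0.023), mitochondrial ribosomal proteins (0.053), other TOP transcripts (0.022) and biogenesis factors (0.015). Untreated replicate 1 is the lowest for initiation (−0.036) and biogenesis factors (−0.042). It is also the lowest for all genes (−0.011), the large subunit (−0.019), other TOP transcripts (−0.034) and mitochondrial ribosomal proteins (−0.042).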

How the data were processed

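RMA (with the affy and limma packages also named) made the values, per the submitters' processing notes, and the authors deposited them as log2 probe set intensities. Sources used here do not state versions or a build, and log2 was inferred from the value range. Of 45101 probe sets, 34945 carried 1 symbol in the platform annotation and gave 18193 genes, 932 carried several and 9160 none. A model of fluoxetine against untreated was fitted with limma 3.58.1 in R 4.3.3 (lmFit, eBayes with trend). Tests had 2 sides, Benjamini-Hochberg adjustment covered every gene, the threshold was 0.05 and dim genes were kept. With 2 residual and 5.15 prior degrees of freedom, p-values reflect spread between these 4 arrays only, which may be technical. The fit was tested on simulated data. By rule the text names members at an unadjusted p below 0.05, the 3 brightest and 3 dimmest of each subunit, paralogues and parents, stalk genes, a few well-known genes, and up to 4 genes of each other list. Rpl27a, Rps7, Rps9, Rps15, Rpl12 and Rpl14, and genes whose start sites are shown, lie outside it. Members, lists and rules were chosen with earlier results of these data known. Alternatives changed the scaling, the trend, the choice of probe set, the level filter and the arrays.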

Additional observations from a re-analysis of the deposited data

How the results depend on the processing

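No ribosomal protein gene passed an adjusted p of 0.05 under any alternative fitted, the lowest adjusted p in limma lying between 0.445 and 1. The large subunit median of −0.015 changed sign to 0.021 after subtracting array medians, 0.013 with the mean of a gene's probe sets, 0.019 with the most variable one, 0.0094 with plain _at probe sets (13 genes) and 0.00012 for genes above the median level. The small subunit median of −0.039 moved to −0.0028 after subtracting array medians, −0.072 with the most variable and −0.13 with plain _at probe sets. With 1 array left out they ranged from −0.026 to 0.017 and from −0.058 to −0.0025. Large subunit genes higher at an unadjusted p below 0.05 in limma numbered 2 after subtracting array medians and 0 without the trend. Lower were 1 after quantile normalization and 1 above the median level. Over all 18193 genes, 846 were higher and 431 lower after subtracting array medians, and 392 and 913 without the trend. After quantile normalization they were 572 and 1113, and above the median level 523 and 208 of 9096. Small subunit genes lower numbered 1 after quantile normalization, 1 with the most variable probe set and 0 to 3 with an array left out, with 0 higher. Probe sets with several symbols, an alternative chosen after seeing the data, had medians of −0.0097 and −0.014.

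Single genes changed sign. Among them were Pabpc1, Gtpbp2 and Nop10, which had passed an unadjusted p below 0.05 at 0.20, −0.16 and −0.15, each with another choice of probe set. After quantile normalization, Rplp0 was at −0.015, Rps27l at −0.0070, Rpl13a at −0.0039 and Eef1a2 at −0.00098. After subtracting array medians, Rps4x was at 0.031, Rpl22 at 0.016, Rpl41 at 0.027, Rps14 at 0.011, Eef1a1 at 0.025 and Tpt1 at 0.027. With the mean of a gene's probe sets, Rps27l was at −0.020, Rpl22 at 0.017, Rpl13a at −0.0061, Eef2 at −0.11 and Gtpbp2 at 0.030. With the most variable one, Rps27l was at −0.11, Rpl22 at 0.052, Eef2 at −0.29, Pabpc1 at −0.15 and Gtpbp2 at 0.27. With plain _at probe sets, Rpl22 was at 0.020, Pabpc1 at −0.15, Gtpbp2 at 0.043 and Nop10 at 0.031. The causes were not tested; plain _at probe sets and the level filter leave some genes without a value. With 1 array left out, the values ranged from −0.031 to 0.050 for Rplp0, −0.035 to 0.094 for Rps27l, −0.75 to 0.089 for Rps16, −0.045 to 0.033 for Rps4x, −0.043 to 0.0017 for Rpl22, −0.0078 to 0.072 for Rpl22l1, −0.30 to 0.41 for Rpl39l, −0.27 to 0.11 for Rpl3l, −0.016 to 0.017 for Rps29, −0.010 to 0.010 for Rpl13a, −0.15 to 0.00048 for Rps6, −0.037 to 0.094 for Eef1a2 and −0.032 to 0.014 for Tpt1. No paired analysis was possible because the labels give the groups no shared replicate numbers. With 2 arrays a group, and no detection calls used here, small differences of dim probe sets are not detectable.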
